A study of Mus musculus with 24 samples.

Results

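Irf4, Cd52, Stx11, Serpinb6a, Tox, Vps37b, Lsp1, Tent5a and Arl6ip1 were 9 of the 27179 genes in the deposited count table. They were chosen by measured values: their p-values for neuromedin U (NMU) against vehicle in group 2 innate lymphoid cells (ILC2) of the mouse colon were among the smallest. With NMU, 8 of them were higher in ILC2 and Vps37b was lower. In that comparison their values are therefore a description, and they were tested in CD4 T cells of the same mice and between the sorted populations.

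Cells were sorted from colon lamina propria. All 8 mice carried the Nmur1 iCre-eGFP allele, which marks cells that transcribe Nmur1, the gene of an NMU receptor, with eGFP. Each mouse had received 5 days of 3% dextran sulfate sodium (DSS), an agent that damages the lining of the colon, followed by 3 days of plain water. None of the 6 groups was without DSS. Mice 1 to 4 were injected intraperitoneally with NMU and mice 5 to 8 with phosphate-buffered saline (PBS), every other day. Each mouse gave 1 library of eGFP+ ILC2 (gated as CD45+ Lin- CD90.2+ CD127+ KLRG1+), 1 of eGFP+ CD4 T cells (NMUR1+) and 1 of eGFP- CD4 T cells (NMUR1-), so that 24 libraries fell into 6 groups of 4. The labels give no age or sex, and the design text counts 3 mice per treatment where the sample labels name 4.

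ILC2 are tissue lymphocytes without antigen receptors that secrete type 2 cytokines, and in the gut they express Nmur1, through which NMU from enteric neurons activates them. The 9 genes do not belong to 1 pathway. Irf4 and Tox encode transcription factors, Irf4 of activated lymphocytes and plasma cells and Tox an HMG-box factor of T cell and innate lymphoid development. Stx11 (a SNARE protein of granule release), Vps37b (a subunit of the membrane-sorting complex ESCRT-I) and Arl6ip1 (a protein that shapes the endoplasmic reticulum) act on membranes. Cd52 encodes a small glycoprotein held on the leukocyte surface by a lipid anchor, and Lsp1 a leukocyte protein that binds actin filaments. Serpinb6a is an intracellular inhibitor of serine proteases, and Tent5a encodes a non-canonical poly(A) polymerase.

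All 9 are protein-coding genes, and their RefSeq positions in build GRCm38.p6, the assembly behind mm10, were spread over 6 chromosomes. Irf4 (chr13:30749233-30766981) and Serpinb6a (chr13:33917918-34002794) shared chromosome 13, Cd52 (chr4:134093538-134095073) and Tox (chr4:6686353-6991557) chromosome 4, and Lsp1 (chr7:142458223-142494868) and Arl6ip1 (chr7:118118890-118129625) chromosome 7. Stx11 (chr10:12938217-12964498), Vps37b (chr5:124004641-124032260) and Tent5a (chr9:85320439-85327150) each stood alone on theirs.

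RefSeq promoter windows, 250 bases before to 50 after the start site, were at hand for Irf4, Stx11, Serpinb6a, Tent5a and Arl6ip1, with 2 windows each for Serpinb6a and Tent5a. Letter patterns of 6 kinds of factors that act in activated lymphocytes, and the TATA box, were searched on both strands. The 150 bases before the start site are printed for 3 genes that were higher in ILC2 with NMU, because they hold the matches nearest upstream of the start: the TATA box in Irf4 and a letter pattern of interferon-response elements in Serpinb6a and Arl6ip1. Capitals mark the match, and each run reads 5′ to 3′ on the gene's own strand.
Irf4, chr13:30749083-30749232, plus strand: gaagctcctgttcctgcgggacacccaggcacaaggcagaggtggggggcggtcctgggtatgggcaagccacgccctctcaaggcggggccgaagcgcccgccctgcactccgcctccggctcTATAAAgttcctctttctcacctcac
Serpinb6a, chr13:34002795-34002944, minus strand: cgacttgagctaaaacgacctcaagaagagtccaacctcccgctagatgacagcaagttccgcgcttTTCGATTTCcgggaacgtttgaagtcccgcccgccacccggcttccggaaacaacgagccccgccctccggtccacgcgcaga
Arl6ip1, chr7:118129626-118129775, minus strand: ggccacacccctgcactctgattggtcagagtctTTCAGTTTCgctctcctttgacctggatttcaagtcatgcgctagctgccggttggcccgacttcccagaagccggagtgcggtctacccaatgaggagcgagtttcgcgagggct

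The TATA box (TATAAA) began at base -26 of Irf4, counted back from the start site, and 13.6% of 32851 windows of this length held it. Tent5a held it at base -178 of 1 window and -204 of the other. The interferon-response pattern GAAANNGAA, which IRF proteins can bind, was met on the reverse strand at base -83 of Serpinb6a and -116 of Arl6ip1, and in 8.56% of all windows. The second Serpinb6a window held it at base 5 after the start. The composite pattern GGAANNGAA, at which IRF4 binds together with ETS factors, occurred in 8.24% of all windows and in none of the 7 windows of these genes. The AP-1 pattern TGANTCA (7.81% of all windows), the cyclic AMP response element TGACGTCA (1.79%) and the NF-kappaB pattern GGGANTTCC (1.68%) were also not met in them. The NFAT core GGAAAA was found at base 9 of that second window, where it overlaps the interferon-response pattern, and in 23.4% of all windows. These matches describe letters in the windows only.

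The 24 libraries held 8485266 to 17854961 counts, and levels are given as CPM (counts scaled to equal library size). ILC2 libraries matched their label: Cd3e, a T cell receptor subunit, lay at 0 to 12.1 CPM in them and at 697 to 1026 CPM in the CD4 libraries, and Gata3, the defining factor of type 2 lymphocytes, at 4241 to 6572 CPM in ILC2. Immunoglobulin RNA, a product of plasma cells, took 0.0241 to 0.867% of counts in the 4 NMU and 0.665 to 7.93% in the 4 PBS libraries of ILC2, 0.784 to 30.4% in NMUR1+ and 0.146 to 5.58% in NMUR1- libraries. Above 20% were mice 1, 4, 5 and 7 in NMUR1+ cells. Nmur1 itself was at 166 to 328 CPM in ILC2, at 15.4 to 74.96 CPM in 7 NMUR1+ libraries and at 1.61 to 7.87 CPM in NMUR1- libraries. The library labelled NMUR1+ of mouse 1 had 6.09 CPM, below the 7.22 CPM of the same animal's NMUR1- library, so its Nmur1 level goes against its label. Its Gata3 (1955.5 CPM) and Klrg1 (1191.5 CPM, a gene of the ILC2 gate) were instead the highest of the 8 NMUR1+ libraries. In NMUR1- libraries these 2 genes reached at most 671 and 187 CPM. Without mouse 1 no gene of the 9 passed for NMU in either CD4 population, 7 of 9 still passed between ILC2 and each CD4 population, and 3 in place of 4 passed between the CD4 populations. With any 1 mouse left out, 4650 to 5034 of all genes passed for ILC2 against NMUR1+ cells and 4868 to 5292 against NMUR1- cells. Between the CD4 populations 609 to 1035 passed. In sorted bulk RNA, fewer cells of a type and less RNA per cell cannot be told apart.

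In ILC2 the 9 genes differed between NMU and PBS by log2 values of 0.70 to 2.26 in size (median 1.30; median of all 11205 tested genes -0.03). Among those 11205 genes, 74 (0.66%) passed an edgeR adjusted p of 0.05, 45 (0.402%) higher and 29 (0.259%) lower with NMU, and in 9.4% the NMU and PBS libraries did not overlap. All 9 genes are in both sets, from which nothing is read because their p chose them. They held the ranks 1, 2, 4, 5, 7, 8, 10, 12 and 13 by p, with p from 1.74e-07 (Cd52) to 2.33e-05 (Arl6ip1). Dusp4, Pcsk1, Usp2 and Eprs held the ranks between them. Just past Arl6ip1 (log2 0.70) came Cdk11b (-0.98), Sytl2 (1.69) and Junb (-0.69).

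The transcription factor Irf4 had a low level in ILC2 of PBS mice, at 47.9, 41.7, 59.8 and 37.0 CPM in mice 5 to 8. In ILC2 of NMU mice 1 to 4 it was at 190.5, 185, 169 and 226 CPM. The lowest NMU library thus lay far above the highest PBS library, and edgeR's fitted fold was 4.07 (log2 2.02, SE 0.19). With the levels of Jchain, a plasma cell gene, and Lyz2, a macrophage gene, as covariates the log2 value of Irf4 was 1.95. Jchain lay at 6.89 to 923 CPM in NMU and 1390 to 15738 CPM in PBS libraries of ILC2, so that fit cannot separate it from the treatment. Tox was at 253, 258, 308 and 214 CPM with PBS and at 755, 580.0, 622 and 623 CPM with NMU. Here too all NMU libraries were above all PBS libraries (log2 1.30, SE 0.14, or 1.09 with those covariates).

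Among the membrane proteins, Stx11 was at 107, 101.7, 81.1 and 105 CPM in ILC2 of PBS mice and at 351, 255, 364 and 303 CPM with NMU. The groups did not overlap, and the fitted fold was 3.17 (log2 1.67, SE 0.15). Arl6ip1 had the smallest difference of the 9 and even replicates: 387, 397, 383 and 398 CPM with PBS and 656, 676, 634 and 609 CPM with NMU (log2 0.70, SE 0.10). Its PBS libraries spanned a few percent of their mean and lay well below the NMU libraries. Vps37b was lower with NMU, at 5692, 5542, 5499 and 6375 CPM with PBS and 2927, 3083, 2563 and 2329.7 CPM with NMU. No NMU library reached the PBS range, and edgeR's fitted level was 2.15-fold lower with NMU (log2 -1.11, SE 0.11).

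The surface protein gene Cd52 was at 234, 235, 206 and 170.2 CPM in PBS libraries of ILC2 and at 828, 610.0, 736 and 690.5 CPM in NMU libraries. Every NMU library lay far above the highest PBS library (fitted fold 3.33, log2 1.74, SE 0.14). Lsp1 was at 529.9, 558, 480.1 and 406 CPM with PBS and at 986, 956, 958 and 1019 CPM with NMU (log2 0.97, SE 0.12). Its 4 NMU libraries lay within a narrow band (979.7 ± 29.6 CPM, SD, n = 4). T cells also express both genes, and 12 T cell markers summed to 993 to 1523 CPM in the NMU and 792 to 1172 CPM in the PBS libraries of ILC2, with Cd3e at 0 to 7.07 and 1.99 to 12.1 CPM. Of 11 T cell markers tested, 5 had a log2 value above 0 and none passed in edgeR.

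Serpinb6a showed the largest fitted difference of the 9. It was at 22.5, 24.96, 30.5 and 27.8 CPM in ILC2 of PBS mice and at 166, 94.5, 140.03 and 115 CPM with NMU. Every NMU library was thus far above the PBS libraries, which lay close together (fitted fold 4.79, log2 2.26, SE 0.21, or 1.96 with the Jchain and Lyz2 covariates). Serpinb6a has close copies in the mouse genome, and how reads between them were counted is not given in the sources used here. Tent5a was at 263, 248, 240.4 and 236 CPM with PBS and at 576, 389, 587 and 532 CPM with NMU. The NMU libraries again lay above, with mouse 2 the lowest of them (log2 1.06, SE 0.14).

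**Figure D1:**
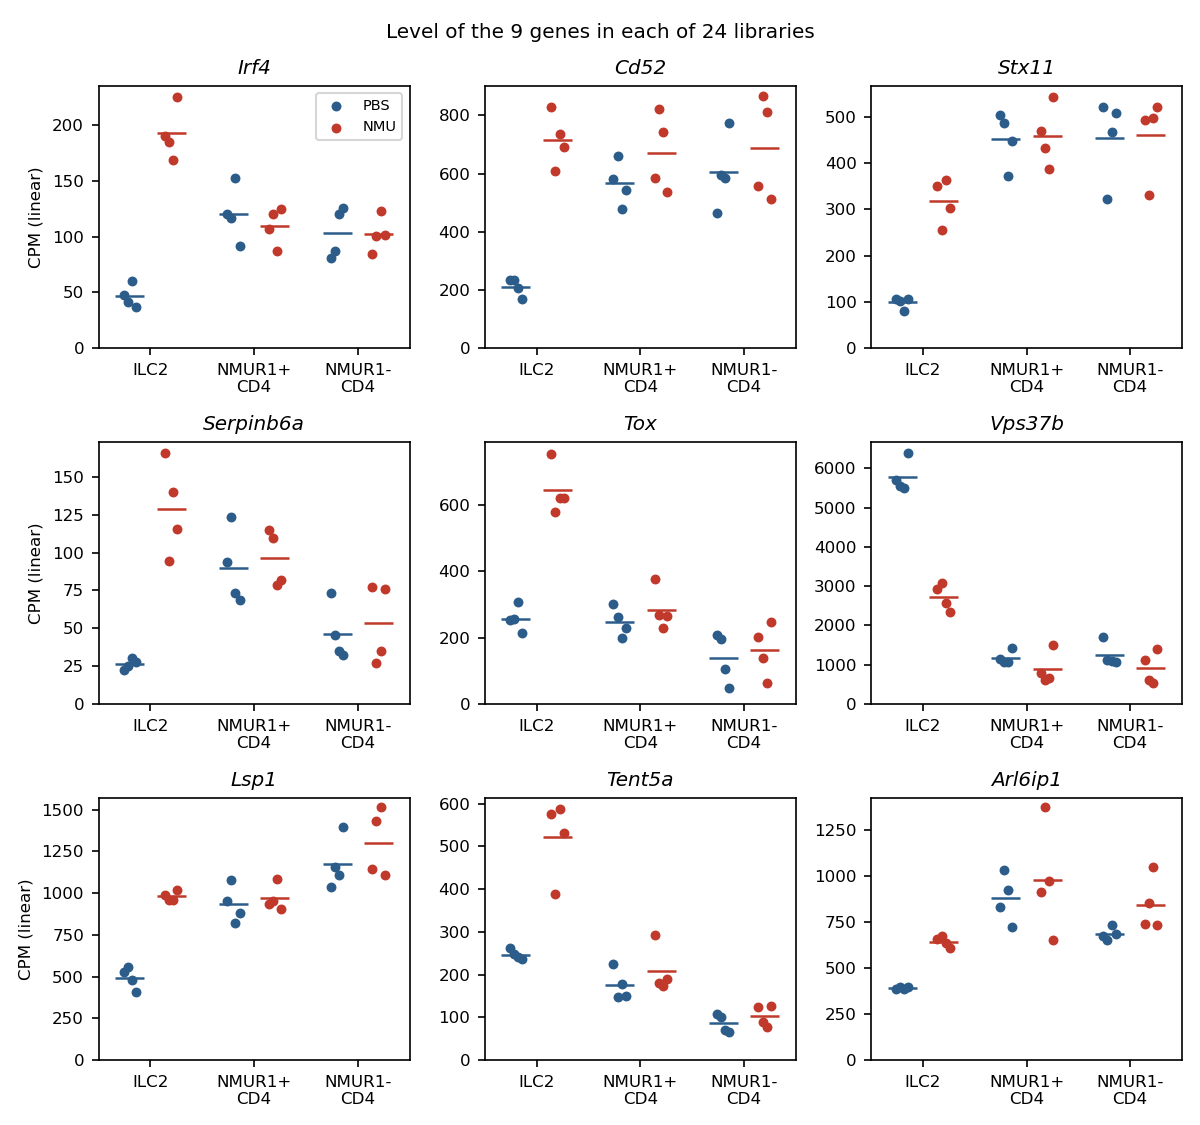
CPM (linear axes from 0) of the 9 genes in the 24 libraries, by population; each point is 1 mouse, blue for PBS and red for NMU, and bars are group means (n = 4). In ILC2 the 2 colours do not overlap in any panel, while in CD4 cells they overlap in all panels except Arl6ip1 in NMUR1- cells.

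Other RNA moved with the treatment in ILC2 as well, and its part in these differences was not tested. Summed over 14 B and plasma cell markers, NMU libraries had 1125 to 6240 CPM and PBS libraries 5379 to 60337 CPM. The 16 macrophage and dendritic cell markers summed to 134 to 485 against 192 to 1148 CPM, with Itgax and Flt3 at 0 in all NMU libraries. The 13 fibroblast markers summed to 276 to 313 against 186 to 664 CPM, with Lum and Mfap5 at 0 in all NMU libraries, and the median log2 of the 10 tested was -3.81. Their sum held the filament gene Vim, at 170 to 195 CPM with NMU and 80.8 to 106 CPM with PBS, and Thy1, also listed as an ILC2 marker. The list's 1 call was higher with NMU. The number of genes detected was 10778 to 12637 with NMU and 12635 to 13736 with PBS. The 10 epithelium markers summed to 38.5 to 74.1 CPM with NMU and 23.4 to 64.9 CPM with PBS. Of the 6 tested, 2 had a log2 value above 0 (median -1.79), and 1 passed, higher with NMU. In this list Epcam, an adhesion protein of epithelium, was at 32.5 to 60.8 CPM with NMU and 8.39 to 14.4 CPM with PBS. The goblet cell gene Muc2 was at 0 in all NMU libraries. Klrg1, a gene of the gate itself, was at 1272 to 1698 CPM with NMU and 685 to 958 CPM with PBS. With Jchain and Lyz2 as covariates the log2 values of the other 6 genes ran from 0.69 (Arl6ip1) to 1.67 (Stx11) for those higher with NMU, and Vps37b was at -1.14. Only 5 of all tested genes passed in that fit, and Jchain did not overlap between the treatments in ILC2.

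Genes of the same pathways were looked at in 13 lists with 183 entries, of which 153 were tested in ILC2. In edgeR 6 of the 153 passed, 4 higher and 2 lower with NMU, where 0.66% of all tested genes did. Of 8 receptor genes linked to Tox in T cells, 2 rose. The inhibitory receptor gene Pdcd1 rose from 1113 ± 92.4 to 1812 ± 175 CPM (SD, n = 4; log2 0.68 ± 0.11 SE in edgeR, adjusted p = 0.0250). Ctla4, another inhibitory receptor, rose from 25.6 ± 6.47 to 133 ± 76.2 CPM (log2 2.36 ± 0.37 SE in edgeR, adjusted p = 0.0248). The median log2 of the 8 was 1.01, with 7 above 0. Tox2, a paralog of Tox, was at 31.6 ± 15.3 against 5.15 ± 4.13 CPM and did not pass (edgeR adjusted p = 0.124).

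Of 29 tested actin regulators of leukocytes, the group to which Lsp1 belongs by function, 2 rose. Gmfg, which removes branches from actin filaments, went from 49.95 ± 2.043 to 101.0 ± 11.5 CPM (log2 0.99 ± 0.16 SE in edgeR, adjusted p = 0.0250). Profilin (Pfn1), which feeds actin monomers to filaments, went from 1232 ± 235 to 2095 ± 167 CPM (log2 0.74 ± 0.14 SE in edgeR, adjusted p = 0.0462). The list's median was 0.25, with 21 of 29 values above 0.

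Among 18 tested partners and regulators of IRF4, Junb fell from 13612 ± 988 to 8549 ± 863 CPM (log2 -0.69 ± 0.10 SE in edgeR, adjusted p = 0.0169) and no other passed. The remaining call was Ly6c2, a lipid-anchored surface protein like Cd52, at 13.9 ± 20.2 CPM with PBS and 0.019 ± 0.038 CPM with NMU (edgeR adjusted p = 0.0398). None of the 8 other IRF genes passed, nor did any of 24 granule and SNARE genes, 10 genes of ESCRT-0 and ESCRT-I, 8 poly(A) polymerases or 11 proteins that shape the endoplasmic reticulum. The close copy Serpinb6b was at 252 ± 73.6 against 122 ± 24.6 CPM with libraries apart, but did not pass (log2 1.02, edgeR adjusted p = 0.0847).

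In CD4 T cells of the same mice none of the 9 genes passed the test of NMU against PBS. In NMUR1+ cells, 0 of 12061 genes passed in edgeR (307, or 2.55%, at an unadjusted p under 0.05, and 2, or 0.0166%, in DESeq2), and the log2 values of the 9 ran from -0.40 (Vps37b) to 0.26 (Tent5a). Each had an edgeR adjusted p of 1.00. In NMUR1- cells, 0 of 12103 passed in edgeR (877, or 7.25%, unadjusted, and 21, or 0.174%, in DESeq2), with values from -0.45 (Vps37b) to 0.30 (Arl6ip1) and edgeR adjusted p from 0.691 to 0.987. The median of the 9 was 0.10 in NMUR1+ and 0.18 in NMUR1- cells, beside 0.00 and 0.01 for all tested genes.

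**Figure D2:**
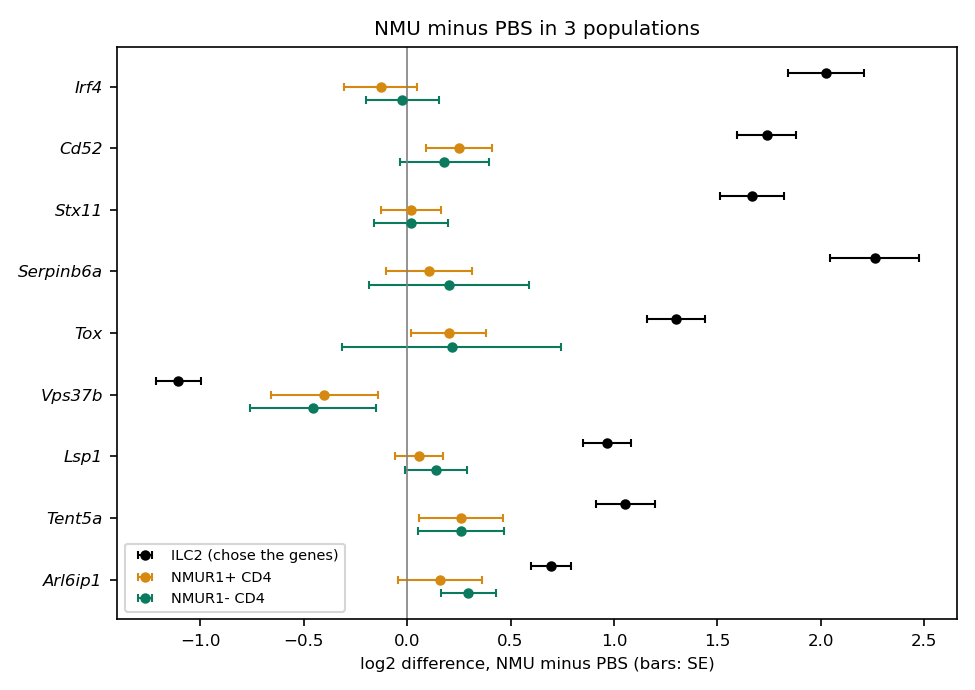
Log2 difference, NMU minus PBS, of the 9 genes in ILC2 (black), NMUR1+ CD4 (orange) and NMUR1- CD4 cells (green); bars are SE (n = 4 against 4). The ILC2 values chose the genes and lie between -1.11 and 2.26, while CD4 values lie between -0.45 and 0.30.

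Irf4 in NMUR1+ cells was at 107, 119.9, 86.8 and 124.8 CPM with NMU and at 121, 117, 152 and 91.1 CPM with PBS. The libraries overlapped, and the 95% interval of the log2 difference was -0.52 to 0.26. In NMUR1- cells Irf4 was at 84.4 to 123 CPM with NMU and 80.6 to 126 CPM with PBS (95% interval -0.42 to 0.37). The difference between ILC2 and CD4 cells in the NMU effect was not tested because the ILC2 values chose the genes. For Stx11 the intervals were -0.30 to 0.34 in NMUR1+ and -0.38 to 0.41 in NMUR1- cells, and for Lsp1 they were -0.20 to 0.31 and -0.19 to 0.48. Those of Cd52 were -0.10 to 0.60 in NMUR1+ and -0.30 to 0.66 in NMUR1- cells.

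The spread was wider for other genes, and smaller NMU differences were not detectable at it. Tox in NMUR1- cells was at 202, 138, 64.0 and 248.6 CPM with NMU and at 208, 197, 106 and 48.7 CPM with PBS. The libraries of each treatment thus covered nearly the same range, and the 95% interval, -1.02 to 1.45, includes the log2 value of 1.30 from ILC2. Serpinb6a in NMUR1- cells had an interval of -0.67 to 1.08. Vps37b was lower with NMU by 0.40 in NMUR1+ and 0.45 in NMUR1- cells on the log2 scale, but its intervals were -0.97 to 0.17 and -1.14 to 0.23.

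The other genes overlapped as widely. Cd52 in NMUR1+ cells was at 583, 823, 743 and 537 CPM with NMU and at 581, 659, 479 and 544 CPM with PBS, and in NMUR1- cells at 558, 866, 811 and 511 CPM against 466, 595, 586 and 775 CPM. NMU mice 2 and 3 were the high libraries of their group in both populations. Stx11 was at 387 to 544 CPM with NMU and 371 to 504 CPM with PBS in NMUR1+ cells, and Tent5a at 173 to 292 against 147.8 to 226 CPM. Serpinb6a was at 115, 109, 78.6 and 82.0 CPM with NMU and at 93.5, 123, 73.1 and 68.6 CPM with PBS in NMUR1+ cells. Both treatments covered the same range there (log2 0.10, 95% interval -0.36 to 0.56). Lsp1 in NMUR1- cells was at 1107 to 1514 CPM with NMU and 1037 to 1393 CPM with PBS. None of the 13 pathway lists had a call for NMU in CD4 cells (0 of 160 tested genes in NMUR1+ and 0 of 159 in NMUR1- cells).

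Vps37b levels in CD4 cells also differed by animal, and its means depended on single animals. In NMUR1+ cells it was at 778, 611, 670.3 and 1506 CPM in NMU mice 1 to 4 and at 1146, 1069, 1077 and 1419 CPM in PBS mice 5 to 8. Mouse 4 lay apart from the other NMU mice and above every PBS mouse. The same animal was the highest NMU library in NMUR1- cells, where mice 1 to 4 had 1121, 609, 529.7 and 1393 CPM and mice 5 to 8 had 1706, 1127, 1086 and 1065 CPM. Without the 4 NMUR1+ libraries above 20% immunoglobulin, mouse 4 among them, the log2 difference in NMUR1+ cells was -0.96 with 2 libraries per group (edgeR adjusted p = 0.989).

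Arl6ip1 was the one gene of the 9 whose NMU and PBS libraries did not overlap in a CD4 population, as held for 4.48% of all tested genes in NMUR1- cells (1.84% in NMUR1+ cells). There it was at 738, 853, 1048 and 735 CPM with NMU and at 675, 654, 733 and 684 CPM with PBS. The lowest NMU and the highest PBS library were nearly level (log2 0.30 ± 0.13 SE in edgeR, adjusted p = 0.691). In NMUR1+ cells its libraries overlapped (654 to 1374 against 723 to 1029.5 CPM). The NMU difference between NMUR1+ and NMUR1- cells was tested directly: no member passed, with values from -0.14 to 0.07, and 0 of 13509 genes passed in edgeR (157, or 1.16%, unadjusted, and 4, or 0.0297%, in DESeq2).

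Levels in ILC2 were next set against those of CD4 cells. In PBS mice, all 4 ILC2 libraries were below all 16 CD4 libraries for Irf4, Cd52, Stx11, Lsp1 and Arl6ip1, and above all of them for Vps37b. With NMU, ILC2 lay above all 16 CD4 libraries for Irf4, Tox, Vps37b and Tent5a, and below all of them for no gene. The group means of 6 genes (Irf4, Cd52, Stx11, Vps37b, Lsp1 and Arl6ip1) were nearer to both CD4 populations in NMU mice than in PBS mice. Those of Tox and Tent5a were farther away, and Serpinb6a was nearer to NMUR1+ but not to NMUR1- cells. Because the ILC2 values chose the genes, this is a description without a test. Among all tested genes, ILC2 libraries did not overlap with NMUR1+ libraries in 10.3% and with NMUR1- libraries in 14.4%, over both treatments. The share within each treatment against all 16 CD4 libraries was not counted, so nothing is read from these numbers of genes.

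The order of the 6 groups differed between the genes. Irf4 was highest in ILC2 with NMU (193 ± 23.9 CPM, SD, n = 4), then came the 4 CD4 groups with overlapping libraries (102.1 to 120.1 CPM), and ILC2 with PBS was lowest (46.6 ± 9.90). Cd52 in ILC2 with NMU (716 ± 91.0 CPM) overlapped all CD4 groups, while ILC2 with PBS (211 ± 30.7) lay below them. Stx11 in ILC2 with NMU (318 ± 49.6 CPM) lay below the mean of every CD4 group (453 to 461), and 2 of these 4 libraries were below all 16 CD4 libraries. ILC2 with PBS lay lower still (98.8 ± 12.0). Tox was highest in ILC2 with NMU (645 ± 76.2 CPM), while ILC2 with PBS (258 ± 38.5) lay among the NMUR1+ groups (248 and 285). Vps37b was highest in ILC2 under both treatments.

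Serpinb6a ran from ILC2 with NMU (129 ± 30.8 CPM) over the NMUR1+ groups (96.1 and 89.6) and the NMUR1- groups (53.7 and 46.5) to ILC2 with PBS (26.4 ± 3.46), with overlap between ILC2 with NMU and NMUR1+ cells and between ILC2 with PBS and NMUR1- cells. Lsp1 in ILC2 with NMU lay among the NMUR1+ groups (969 and 932 CPM) and below every NMUR1- library (group means 1298 and 1175). Tent5a in ILC2 with NMU (521 ± 91.4 CPM) lay above all other groups, and ILC2 with PBS (247 ± 11.9) overlapped NMUR1+ cells of NMU mice (209 ± 55.8). Both NMUR1- groups of Tent5a were lowest (104 and 86.4 CPM). Arl6ip1 was below all 4 CD4 means (687 to 978 CPM) in ILC2 of both treatments (644 ± 29.1 and 391 ± 7.30), and its NMU libraries overlapped the CD4 libraries.

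Averaged over NMU and PBS on the log scale, ILC2 differed from NMUR1+ cells in 7 of the 9 genes, 2 higher and 5 lower, where 38.6% of 13509 genes passed (15.1% higher and 23.5% lower). The averages did not enter the choice of the genes, but the same ILC2 libraries and their spread did. The shares of all genes, here and against NMUR1- cells, are thus no matched background for these counts. Vps37b was higher in ILC2 (4251 ± 1668 against 1035 ± 330.2 CPM, SD, n = 8; log2 1.96 ± 0.20 SE in edgeR, adjusted p = 8.1e-08) and so was Tent5a (384 ± 158.4 against 192 ± 47.3 CPM; log2 0.91 ± 0.14 SE in edgeR, adjusted p = 2.74e-05), each in 8 of 8 mice. The libraries of Vps37b and Stx11 did not overlap, as for 10.3% of all tested genes. Stx11 was lower in ILC2 in all 8 mice (209 ± 122 against 455 ± 58.1 CPM; log2 -1.36 ± 0.12 SE in edgeR, adjusted p = 5.21e-09), and so was Arl6ip1 (log2 -0.88, SE 0.11). Cd52 (log2 -0.66), Lsp1 (-0.45) and Serpinb6a (-0.66) were lower too, although ILC2 was the higher population in 2, 3 and 3 of 8 mice, respectively, all given NMU. For these 3 genes the mean log2 CPM of ILC2 minus NMUR1+ cells was -1.42, -0.92 and -1.72 in PBS mice. In NMU mice it was 0.11, 0.02 and 0.41, so the lower average came from the PBS mice. Serpinb6a passed with an edgeR adjusted p of 0.0166 and lost the call without mouse 6 (0.0880) and without the 4 libraries above 20% immunoglobulin (0.0608).

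Irf4 (log2 -0.27, edgeR adjusted p = 0.0981) and Tox (log2 0.62 ± 0.25 SE in edgeR, adjusted p = 0.0536) did not pass against NMUR1+ cells. For Irf4 the mean CPM was slightly higher in ILC2 (119.6 ± 79.8 against 114.9 ± 20.5) although the average of logs was lower, since its ILC2 libraries fell in 2 separate ranges. Tox passed with mouse as a block (0.0269), in DESeq2 (0.0291), with immunoglobulin genes left out (0.0420) and without mouse 3 (0.0474) or mouse 8 (0.0301).

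Against NMUR1- cells 7 of 9 genes passed as well, 3 higher and 4 lower in ILC2, where 40.5% of 13509 genes did (16.4% higher and 24.1% lower). Tent5a had a fitted fold of 3.82 in favour of ILC2 (384 ± 158.4 against 95.1 ± 23.3 CPM; log2 1.93 ± 0.15 SE in edgeR, adjusted p = 4.45e-10), Vps37b one of 3.76 (log2 1.91) and Tox one of 2.72 (451 ± 214 against 152 ± 73.4 CPM; log2 1.44 ± 0.25 SE in edgeR, adjusted p = 9.05e-05). The ILC2 libraries of Tent5a and Vps37b did not overlap with the NMUR1- libraries, as for 14.4% of all tested genes. Lsp1 was lower in all ILC2 than in all NMUR1- libraries (737 ± 264 against 1236.5 ± 179.6 CPM; log2 -0.81 ± 0.09 SE in edgeR, adjusted p = 6.91e-08). Stx11 (-1.35), Cd52 (-0.71) and Arl6ip1 (-0.59) were also lower, while Irf4 (-0.10, 95% interval -0.37 to 0.16) and Serpinb6a (0.24, -0.20 to 0.68) did not pass. For Cd52 the mean log2 CPM of ILC2 minus NMUR1- cells was -1.51 in PBS mice and 0.09 in NMU mice.

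The pathway lists gave the surroundings of these differences. Of all 13509 genes, 38.6% passed against NMUR1+ cells (15.1% higher and 23.5% lower in ILC2) and 40.5% against NMUR1- cells (16.4% and 24.1%). Of 29 actin regulators, 21 were lower and 3 higher in ILC2 than in NMUR1+ cells, and 22 were lower and 2 higher than in NMUR1- cells, the direction of Lsp1. The bundling protein gene Lcp1 was at 1427 ± 329 CPM in ILC2 and 3181 ± 419.5 CPM in NMUR1+ cells (log2 -1.17 ± 0.10 SE in edgeR, adjusted p = 2.3e-09), lower in 8 of 8 mice. Of 24 granule and SNARE genes, 7 were lower and 1 higher in ILC2 than in NMUR1+ cells, and 4 were lower and 6 higher than in NMUR1- cells. Taken in both directions, these granule and SNARE counts were near the shares of all genes. Rab27a, which docks secretory granules, was lower with Stx11 in both comparisons (31.3 ± 7.61 CPM in ILC2, 107 ± 8.58 in NMUR1+ and 112 ± 15.8 in NMUR1- cells). Of 8 clade B serpins tested, 2 were higher and 1 lower (Serpinb8) in ILC2 than in NMUR1+ cells, and 2 were higher and 2 lower (Serpinb1b and Serpinb5) than in NMUR1- cells, with medians of 0.26 and -0.43. The higher ones were Serpinb6b and Serpinb9, an inhibitor of granzyme B, in both, while granzyme B (Gzmb) itself was lower (18.0 ± 10.45 CPM against 1491 ± 734 in NMUR1+ cells).

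Of the other genes of Vps37b's complex, Ubap1 and Mvb12b, both ESCRT-I subunits, were higher in ILC2 than in both CD4 populations, by log2 0.68 and 0.93 against NMUR1+ and by 0.54 and 1.56 against NMUR1- cells. The other 8 tested genes of ESCRT-0 and ESCRT-I held 1 call, Stam2, lower in ILC2 in both. The list medians were -0.18 and 0.11, beside -0.10 and -0.12 for all tested genes, of which 38.6% and 40.5% passed. Tent5c, the paralog of Tent5a that is known from plasma cells, was lower in ILC2 (17.1 ± 12.4 CPM) than in NMUR1+ (106 ± 41.4) and NMUR1- cells (62.9 ± 10.3), opposite to Tent5a. Receptors linked to Tox were split. Pdcd1 was higher in ILC2 (1463 ± 395 CPM) than in NMUR1+ (380.3 ± 145) and NMUR1- cells (247 ± 122), whereas Ctla4 was lower (79.5 ± 76.4 against 1999 ± 400.1 and 1532 ± 188 CPM). B and plasma cell markers were lower in ILC2 than in NMUR1+ cells in 14 of 14 cases and than in NMUR1- cells in 6 of 14, and their part in these differences was not tested.

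**Figure D3:**
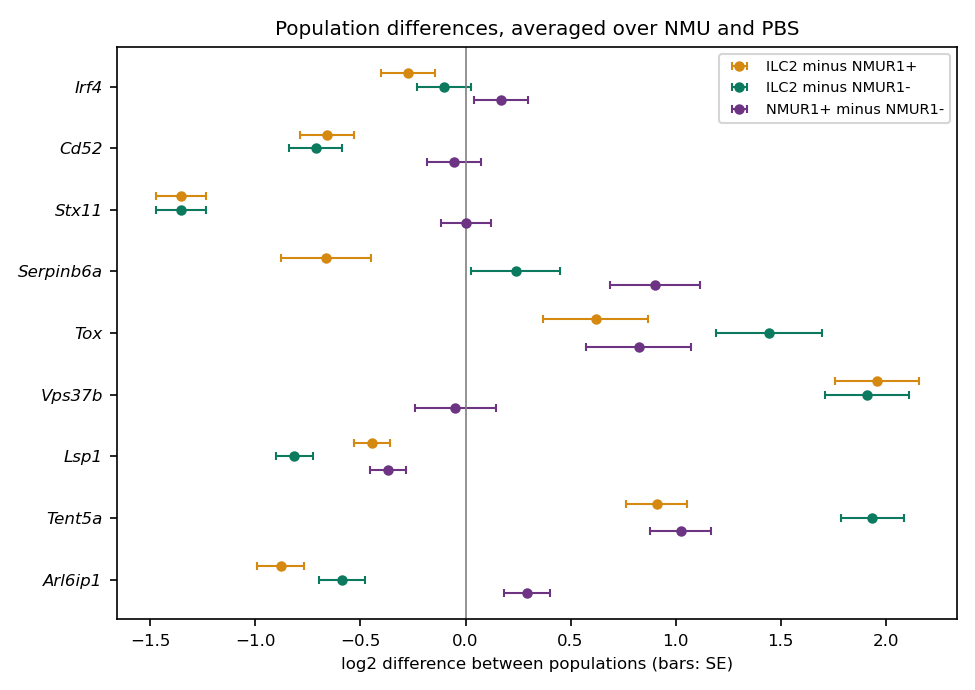
Log2 differences between populations, averaged over NMU and PBS, for the 9 genes; orange is ILC2 minus NMUR1+, green ILC2 minus NMUR1-, purple NMUR1+ minus NMUR1-, and bars are SE (n = 8 against 8). Tent5a lies to the right of 0 in all 3 comparisons (0.91, 1.93 and 1.02), and Stx11 lies at -1.36 and -1.35 against both CD4 populations and near 0 between them.

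The comparison of NMUR1+ with NMUR1- CD4 cells used no ILC2 level, although the spread came from the fit of all 24 libraries. Tent5a, Serpinb6a and Tox were higher and Lsp1 was lower in NMUR1+ cells, 4 of 9 where 8.31% of 13509 genes passed (5.49% higher and 2.83% lower). Tent5a was at 192 ± 47.3 against 95.1 ± 23.3 CPM (SD, n = 8; log2 1.02 ± 0.15 SE in edgeR, adjusted p = 8.1e-05). Its lowest NMUR1+ library (147.8 CPM) was above its highest NMUR1- library (126 CPM), as in 3.31% of all tested genes either way. Serpinb6a was at 92.9 ± 20.6 against 50.1 ± 21.6 CPM (log2 0.90 ± 0.21 SE in edgeR, adjusted p = 0.00931) and Tox at 267 ± 53.9 against 152 ± 73.4 CPM (log2 0.82 ± 0.25 SE in edgeR, adjusted p = 0.0439), both higher in 8 of 8 mice. Lsp1 was lower in 8 of 8 mice (950.2 ± 91.3 against 1236.5 ± 179.6 CPM; log2 -0.37 ± 0.09 SE in edgeR, adjusted p = 0.00762).

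Factors of innate lymphoid development differed in the same comparison, 3 higher and 2 lower in NMUR1+ cells among 12. Gata3 was at 1533 ± 261 against 498 ± 132 CPM (log2 1.63 ± 0.15 SE in edgeR, adjusted p = 7.2e-07) and Id2 at 718 ± 182.5 against 398 ± 116.5 CPM (log2 0.85 ± 0.17 SE in edgeR, adjusted p = 0.00183), each in 8 of 8 mice. Tcf7, a factor of naive and memory T cells, was lower (37.1 ± 16.3 against 196 ± 39.3 CPM; log2 -2.40 ± 0.24 SE in edgeR, adjusted p = 2.33e-06). Of 29 actin regulators 6 were lower, like Lsp1, and 3 higher, with Flna at 149 ± 19.9 against 273 ± 72.4 CPM (log2 -0.84 ± 0.14 SE in edgeR, adjusted p = 0.000584). Of 24 granule and SNARE genes 3 were higher and none lower, where 5.49% of all genes were higher and 2.83% lower.

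The calls of the 9 genes between CD4 populations differed in firmness. Over all genes, 1123 passed in the fit of all libraries and 609 to 1035 with a mouse left out. Without the 4 NMUR1+ libraries above 20% immunoglobulin 393 passed. Only 2 of the 9 genes passed without mouse 6, and 2 without the 4 NMUR1+ libraries above 20% immunoglobulin. In the latter, Tent5a kept its call (log2 0.79, edgeR adjusted p = 0.00476) and Arl6ip1 gained one (0.43, 0.0483), while Serpinb6a (0.95, 0.0693), Tox (0.73, 0.282) and Lsp1 (-0.29, 0.232) lost theirs. Serpinb6a also lost its call without mouse 6 (edgeR adjusted p = 0.0530). Tox lost it without any 1 of mice 1, 2, 3, 5, 6, 7 and 8 (edgeR adjusted p from 0.0548 to 0.132) and without the filter on low counts (0.0727). Arl6ip1, at 928 ± 219.5 against 765 ± 129.6 CPM, did not pass in the fit of all libraries (log2 0.29 ± 0.11 SE in edgeR, adjusted p = 0.105), but did without mouse 4 (0.0315) and in DESeq2 (0.0359).

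Cd52, Stx11, Vps37b and Irf4 did not pass between the CD4 populations. Stx11 was at 455 ± 58.1 against 458 ± 82.8 CPM, and the 95% interval of its log2 difference was -0.24 to 0.24. For Cd52 the interval was -0.32 to 0.21, for Irf4 -0.10 to 0.44 and for Vps37b -0.45 to 0.35. B and plasma cell markers differed between these populations too, 9 of 14 being higher in NMUR1+ cells (median log2 2.44), as did 6 of 16 macrophage and dendritic cell markers (1.75). Their part in the 4 calls was not tested beyond the fit without the 4 libraries.

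Within the NMUR1- cells Tox, Serpinb6a and Tent5a ranged widely between the mice of each treatment. Tox was lowest in mice 8 and 3 (48.7 and 64.0 CPM) and highest in mice 4 and 5 (248.6 and 208 CPM). Klrg1, the receptor on which ILC2 were gated, was at 171, 81.6, 41.5 and 187 CPM in NMU mice 1 to 4 and at 178, 125.3, 71.9 and 32.3 CPM in PBS mice 5 to 8. Of 4 genes whose order was compared, Klrg1 matched the order of the 8 libraries by Tox in 8 of 8 places, Jchain in 6 and Gata3 and Nmur1 in 1 each, with no library more than 2 places away. Tent5a (66.4 CPM in mouse 8 to 126 CPM in mouse 4) matched Klrg1 in 4 of 8 places and Serpinb6a (26.8 CPM in mouse 2 to 77.4 CPM in mouse 1) in 1 of 8. In NMUR1+ cells, where Klrg1 lay at 437 to 1192 CPM, 2 of 8 places by Tox matched. Nmur1 was highest in the NMUR1- libraries of mice 4, 1 and 5 (7.87, 7.22 and 6.97 CPM), which were also the 3 highest in Tox. Whether cells of the eGFP+ gate were among the eGFP- cells was not tested, and it bears on the NMUR1- levels and on the comparison of NMUR1+ with NMUR1- cells. The 4 genes were chosen after values were seen.

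How the 9 genes moved together was described by Pearson's r of log2 CPM, over libraries that share 8 mice and their scaling. Over 24 libraries the 36 pairs had a median r of 0.47 (0.03 for all pairs of 13509 genes), which includes the ILC2 differences that chose the genes. With the 6 group means removed the median was -0.08 (0.01 for all pairs). In that view 2 sets had high values. Tox, Tent5a and Serpinb6a had r of 0.67 to 0.76 with each other, and Cd52 and Lsp1 had 0.86. Vps37b ran against Cd52 (-0.76), Arl6ip1 (-0.75) and Lsp1 (-0.65). Within the 8 ILC2 libraries alone, with the 2 group means removed, Tox, Tent5a and Serpinb6a had r of 0.40 to 0.65 with each other. Cd52 and Lsp1 had 0.78 there, and Vps37b had -0.37 with Cd52 and -0.51 with Lsp1. Vps37b and Arl6ip1, however, had an r of 0.91 in these ILC2 libraries, against -0.80 in the 16 CD4 libraries.

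**Figure D4:**
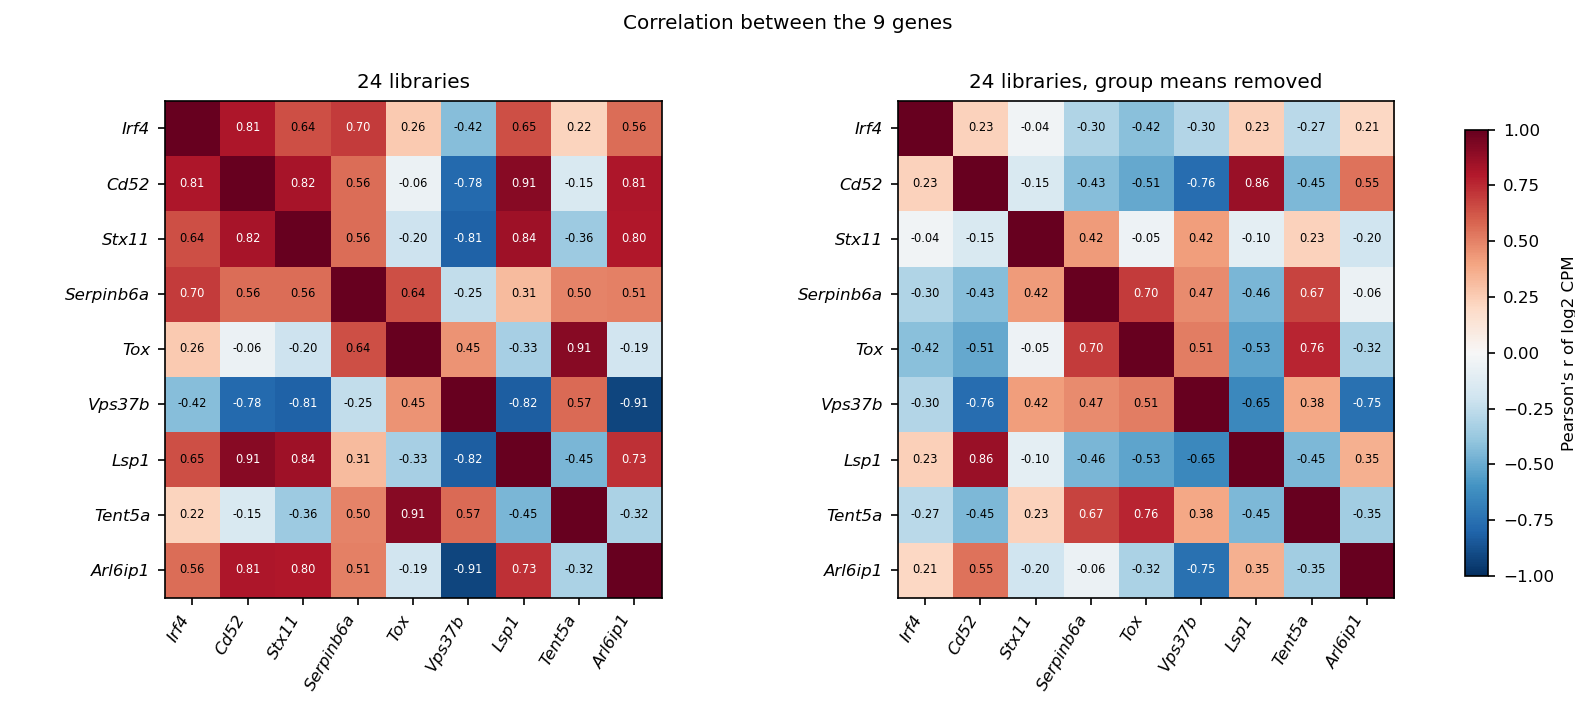
Pearson's r of log2 CPM between the 9 genes over 24 libraries (left) and after removing the 6 group means (right); red is positive and blue negative. On the right Tox, Tent5a and Serpinb6a are positive with each other (0.67 to 0.76), and Vps37b is negative with Cd52, Arl6ip1 and Lsp1 (-0.65 to -0.76).

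The genes with the most similar pattern over the 24 libraries were named for each gene, among genes with a mean of at least 10 CPM. Vps37b was most like Junb (r = 0.97), an AP-1 subunit, with an r of 0.98 after the group means were removed, and next like Tfip11 (0.96, then 0.84). Junb was at 1818 to 2518 CPM in NMUR1+ cells of NMU mice 1 to 3 and at 6003 CPM in mouse 4, the animal that was also high in Vps37b. Tox was most like Tnfrsf18, the gene of the costimulatory receptor GITR (0.91, or 0.77 with group means removed), and Tent5a (0.91, 0.76). Tent5a was most like Id2 (0.94, 0.72), a regulator of innate lymphoid development, and Tnfrsf18 (0.94, 0.75). In the same order, Cd52 was most like the RNA Lockd (0.95, 0.78) and Clic1 (0.93, 0.90), Lsp1 like Txn1 (0.95, 0.80) and the actin regulator Wdr1 (0.94, 0.78), and Arl6ip1 like the filament gene Vim (0.93, 0.68) and Ywhah (0.92, 0.70). Serpinb6a was most like Vgll4 (0.83, 0.85) and Gm2a (0.82, 0.66). For Stx11 and Irf4 the likeness was much lower once group means were removed: Stx11 with Crmp1 fell from 0.93 to 0.35 and with Tnfaip8l1 from 0.93 to 0.36, and Irf4 with Cuta from 0.81 to 0.53 and with Cd52 from 0.81 to 0.23.

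**Figure D5:**
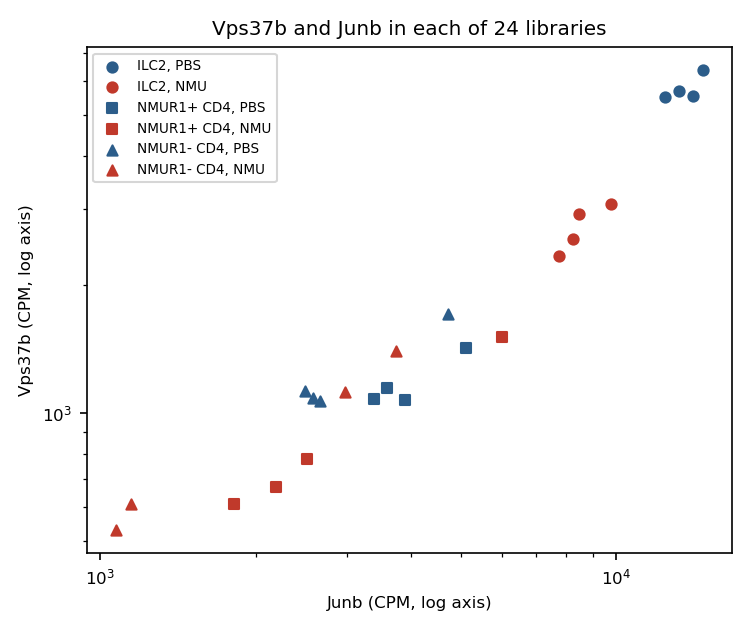
Vps37b against Junb in CPM (both axes log) in the 24 libraries; circles are ILC2, squares NMUR1+ and triangles NMUR1- CD4 cells, blue for PBS and red for NMU. Both genes rise together across the populations, with scatter (r = 0.97), from Junb near 1072 CPM to 14694 CPM.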

How the data were processed

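The authors deposited raw counts of each gene in each library. Per the submitters' processing notes they used STAR 2.5.3 and mm10; the sources used here do not give the counting program, annotation or strand setting. The kit, NEBNext Single Cell/Low Input per the labels' protocols, has no molecular identifiers, and each spread covers mice, sorting and library preparation. Of 27179 identifiers, 93.0% matched a RefSeq symbol (GRCm38.p6). The 9 genes and the gene lists were chosen with earlier results of these data known. Tests were run in edgeR 4.0.16 (R 4.3.3): filterByExpr (minimum count 10), trimmed mean of M values scaling, robust quasi-likelihood tests and Benjamini-Hochberg adjustment over all genes tested, threshold 0.05. NMU and PBS were compared within each population's 8 libraries, and populations in 1 fit of 24 libraries with a mean per group. CPM used the scaled library sizes, and logs a prior count of 2. Genes named were the 9, up to 3 per list and direction that passed or else up to 2 with the smallest p, and the 2 most similar in pattern to each. The fits were tested on simulated data. The closest replicates differed beyond sampling noise (chi-square per degree of freedom 15.49). Populations of 1 number came from 1 mouse; deviations from the group means correlated between NMUR1+ and NMUR1- libraries of a mouse with a median r of 0.22, and with ILC2 at 0.04 and 0.06. Alternatives were DESeq2 1.42.0 and its size factors, no filter, immunoglobulin genes left out, Jchain and Lyz2 covariates, a fit of all 24 libraries, mouse as a block, each mouse left out and, added after seeing the data, 4 NMUR1+ libraries left out.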

Additional observations from a re-analysis of the deposited data

Results flagged for a closer look

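Of 54 groups of 4 libraries (9 genes in 6 groups), 3 had a library whose gap to the others passed Dixon's 95% value for 4 samples, and chance gives about 1 in 20 groups. Stx11 in NMUR1- cells of NMU mouse 2 was at 330.5 CPM, below 493 to 522 CPM in the other NMU mice. Vps37b in NMUR1- cells of PBS mouse 5 was at 1706 CPM, above 1065 to 1127 CPM. Tent5a in the library labelled NMUR1+ of NMU mouse 1 was at 292 CPM, above 173 to 191 CPM, and this was the library with the largest immunoglobulin share (30.4%).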

How the results depend on the processing

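In ILC2 the median size of the 9 differences was 1.14 to 1.39 on the log2 scale over all alternatives, and each gene kept its direction in all of them. These fits reused the libraries that chose the genes, so nothing is read from the kept directions or sizes. The number of genes passing among all tested in ILC2 was 74 in edgeR, 454 in DESeq2, 1053 in the fit of all 24 libraries, 5 with covariates and 12 to 63 with a mouse left out. No alternative gave a member a call for NMU in CD4 cells or for the difference between CD4 populations in the NMU effect (0 of 9). The NMUR1+ against NMUR1- count of 4 fell to 2 without the libraries above 20% immunoglobulin, and ran from 2 to 5 with a mouse left out; over all genes that count was 1123, 393 and 609 to 1035. Signs turned for values near 0 that passed no test. With covariates in NMUR1- cells, Irf4 was at 0.12, Serpinb6a at -0.19 and Tox at -0.13 (NMU against PBS). Without the libraries above 20% immunoglobulin, Stx11 was at -0.19 and Serpinb6a at -0.030 in NMUR1+ cells, and between CD4 populations Cd52 was at 0.11 and Stx11 at -0.042. Without the filter Stx11 was at -0.0078 there. With each mouse left out, NMU differences in NMUR1+ cells ran from -0.24 to 0.0016 (Irf4), -0.081 to 0.095 (Stx11), -0.0042 to 0.30 (Serpinb6a), -0.0023 to 0.13 (Lsp1) and -0.050 to 0.30 (Arl6ip1). In NMUR1- cells they ran from -0.13 to 0.082 (Irf4), -0.11 to 0.14 (Stx11), -0.021 to 0.49 (Serpinb6a) and -0.072 to 0.48 (Tox). Between CD4 populations the ranges were -0.14 to 0.050 (Vps37b), -0.12 to 0.031 (Stx11) and -0.14 to 0.023 (Cd52). The cause was not tested. With mouse as a replicate block, Tox passed between ILC2 and NMUR1+ cells (log2 0.64, edgeR adjusted p = 0.0269) and no other member's call changed.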
